A study of Mus musculus with 9 samples.

Results

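Round spermatids (RS) are the haploid cells that follow meiosis in the testis. In the RNA-seq of cultured mouse RS, 67 genes stood higher with oxamate and octyl-L-2HG together than with oxamate alone or with vehicle, while oxamate alone left their mean near the vehicle mean. They were chosen by their measured values, from 55414 genes listed. The deposited table holds a normalized count for 25128 of these genes, and in 10715 it averaged 100 or more over the 9 libraries. A member had such a mean, an oxamate mean between 0.9 and 1.1 times the vehicle mean, a mean with both compounds at least 1.3 times each of the other means, and every library with both compounds above all 6 other libraries. Since the rule used all 3 comparisons, the heights of the members and their number are a description of the selection and carry no test.

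The RS were sorted by flow cytometry from testes of Stra8-Tom mice, in which the germline Cre Stra8-iCre switches on a tdTomato reporter, on a C57Bl/6 background. The labels give the genotype as WT and the tissue as testis, and the methods describe isolation from prepubertal and adult mice. Cells were cultured for 24 h with vehicle (0.15% DMSO, libraries 1 to 3), with 24 mM of the lactate dehydrogenase inhibitor oxamate (libraries 4 to 6), or with 24 mM oxamate to which 0.3 mM octyl-L-2HG, L-2-hydroxyglutarate as an ester that enters cells, had been added (libraries 7 to 9), and all media held 0.15% DMSO. Octyl-L-2HG was always given together with oxamate in the libraries analysed here, so an action of octyl-L-2HG alone and a joint action of the 2 compounds cannot be told apart, and neither can the L-2HG part of the ester and its octyl part. Triplicate incubations are described without saying that they came from separate animals, so p-values measure only the spread between these libraries, which may be technical.

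L-2-hydroxyglutarate is made from alpha-ketoglutarate as a side product of lactate and malate dehydrogenases, and testis germ cells carry their own lactate dehydrogenase, LDHC. Because it resembles alpha-ketoglutarate, it can slow enzymes that use that substrate, among them histone and DNA demethylases. Round spermatids still transcribe many genes, before the haploid nucleus is packed with protamines and transcription stops.

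The sorted cells carried RS markers: each of the 14 listed averaged 100 or more, and their summed level ran from 129882 to 136320 over the 9 libraries. With both compounds 3 of the 14 were called lower and 0 higher than with oxamate (Catsper3, Lyzl4 and Spaca3, named after their values were seen), and 3 higher and 4 lower than with vehicle. Of all 25128 genes tested, 8.06% were called lower and 3.18% higher with both compounds than with oxamate, and 10.6% lower and 7.48% higher than with vehicle, and the counts of markers stand beside these shares. Among genes with a mean of at least 100, as all 14 RS markers had, 7.06% were called higher against oxamate and 16.0% against vehicle. The share of such genes called lower was not counted. Summed markers of elongating spermatids, the next stage, were 122207 to 122403 with vehicle, 108667 to 116312 with oxamate and 99283 to 105657 with both compounds, and 5 of the 8 were called lower and 0 higher with both compounds than with oxamate, and 7 lower and 0 higher than with vehicle. Spermatocyte markers summed to 35206 to 38040, 34669 to 35051 and 36973 to 38438 in the same order, with 1 of 11 called higher against oxamate. The summed markers of Sertoli cells, Leydig cells, myoid cells and macrophages each stayed at or below 220 in every library, endothelial markers summed to between 492 and 645, and the erythroid genes had no deposited normalized count. Of the 9 spermatogonium markers 2 had a mean of at least 100, and the sum, nearly all from Dmrtb1, was 27402 to 31616, 28058 to 33310 and 33224 to 38174 in the same order. No marker of any of the 10 cell types was a member, and only 0.336% of genes with a mean of at least 100 (36 of 10715) were such markers, so that count says little. The part of the cell mixture in the values below was not tested, and in bulk RNA fewer cells of a type and less RNA per cell cannot be told apart. Libraries held 32339533 to 39888396 counted reads, and oxamate library 4 differed more from the other oxamate libraries than these did from each other (chi-square per degree of freedom 18.7 and 23.3 against 2.10).

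The start-site regions of the members with the largest ratios that had an entry in the RefSeq table are shown first, because genes that move together are often compared by the sequence before their start. Each run is the 250 bases before the annotated start (build GRCm38.p6, whereas the counts were made on GRCm39), read 5′ to 3′ on the strand of the gene, with letters in capitals where 1 of 7 searched motifs matched on either strand. Zfp180 lies on the plus strand at chr7:24081647-24081896, Fgf2 on the plus strand at chr3:37348403-37348652, Ninl on the minus strand at chr2:151009399-151009648 and Topaz1 on the plus strand at chr9:122746949-122747198.
Zfp180: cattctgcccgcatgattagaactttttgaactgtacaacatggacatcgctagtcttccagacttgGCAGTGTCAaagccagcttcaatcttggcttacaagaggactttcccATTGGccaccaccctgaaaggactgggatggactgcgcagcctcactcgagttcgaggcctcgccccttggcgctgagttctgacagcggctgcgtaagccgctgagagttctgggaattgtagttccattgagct
Fgf2: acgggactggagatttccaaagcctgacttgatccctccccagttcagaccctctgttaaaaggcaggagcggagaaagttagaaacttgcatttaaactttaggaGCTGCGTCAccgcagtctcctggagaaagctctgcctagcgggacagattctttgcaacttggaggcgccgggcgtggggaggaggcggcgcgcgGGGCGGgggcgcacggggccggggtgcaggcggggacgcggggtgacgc
Ninl: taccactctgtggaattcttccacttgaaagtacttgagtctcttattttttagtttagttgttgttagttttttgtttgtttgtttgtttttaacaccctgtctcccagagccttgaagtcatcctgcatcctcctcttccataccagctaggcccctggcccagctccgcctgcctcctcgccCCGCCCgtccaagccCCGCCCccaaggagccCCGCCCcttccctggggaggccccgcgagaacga
Topaz1: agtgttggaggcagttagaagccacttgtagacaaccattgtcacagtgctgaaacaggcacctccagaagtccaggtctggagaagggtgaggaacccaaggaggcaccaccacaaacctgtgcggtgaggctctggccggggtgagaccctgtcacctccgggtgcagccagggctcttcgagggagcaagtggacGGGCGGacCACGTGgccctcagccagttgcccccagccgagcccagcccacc

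The motifs searched were the cyclic AMP response element TGACGTCA, the TATA box as TATAAA, the CCAAT box, the GC box as GGGCGG, the E-box CACGTG, the core of the antioxidant response element as TGACNNNGC and the hypoxia response core ACGTG, which lies inside that E-box. Zfp180 held TGACNNNGC and CCAAT, Fgf2 held TGACNNNGC and GGGCGG, Ninl held GGGCGG in 3 places 65, 50 and 34 bases before the start, and Topaz1 held GGGCGG and CACGTG with the ACGTG inside it. No motif was in all 4. Among 27025 RefSeq regions of the same length, GGGCGG occurred in 32.9%, CCAAT in 34.5%, ACGTG in 16.6%, TATAAA in 13.0%, TGACNNNGC in 10.1%, CACGTG in 6.05% and TGACGTCA in 1.62%. Among the 8293 such regions of genes with a mean of at least 100, GGGCGG occurred in 52.7%, CCAAT in 37.2%, ACGTG in 21.5%, TGACNNNGC in 12.4%, CACGTG in 8.46%, TATAAA in 6.73% and TGACGTCA in 3.01%. A comparison of motif shares or base composition between members and other regions was void, since only 46 of the 67 members (68.7%, beside 77.4% of all genes with a mean of at least 100) had an entry.

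The conditions narrowed the genes in steps. Of the 10715 genes with a mean of at least 100, 6836 had an oxamate mean within the window around vehicle, 105 of these also reached 1.3 against oxamate, 72 reached it against vehicle as well, and 67 had the 3 libraries with both compounds above the others. The same rule turned downward took 266 genes. Another 208 genes, referred to as raised at both steps, were at least 15% higher with oxamate than with vehicle and again at least 15% higher with both compounds than with oxamate.

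**Figure D1:**
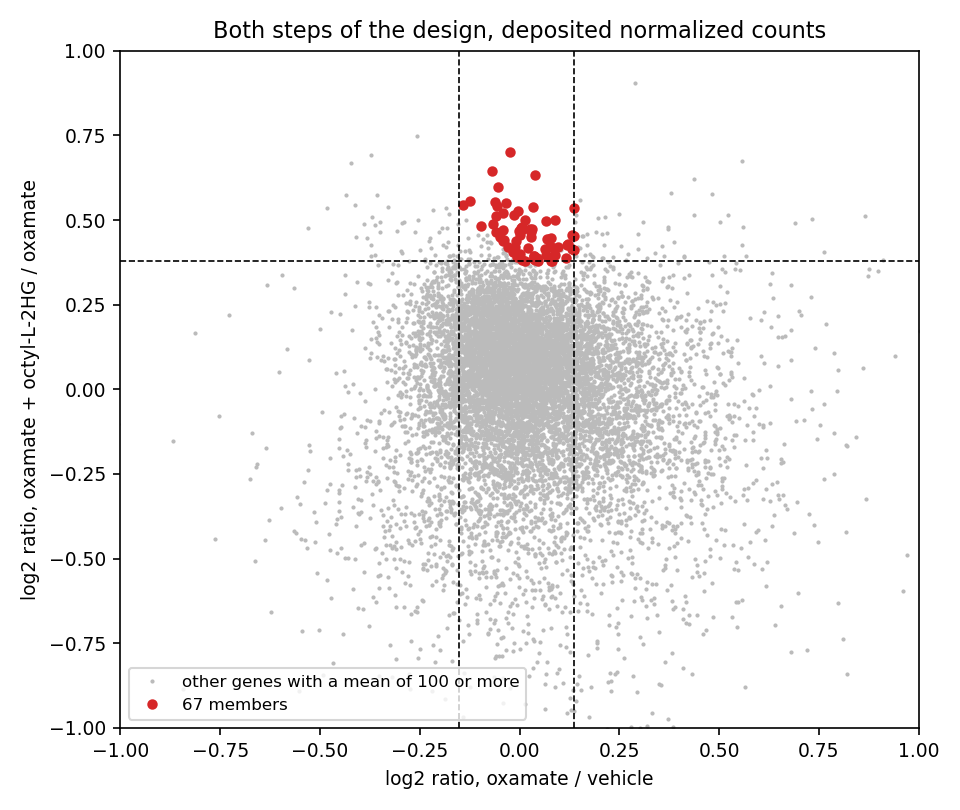
Log2 ratio of the oxamate mean to the vehicle mean (x axis) and of the mean with both compounds to the oxamate mean (y axis) for genes whose normalized counts averaged 100 or more, with the 67 members in red and the limits of the rule as dashed lines (55 genes lie outside the axes). The members lie between the vertical lines, most of them just above the horizontal one, with ratios to oxamate from 1.3 to 1.63.

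The elevation was modest, and its narrow span follows in part from the rule. With a limit of 1.2 in place of 1.3 the rule took 336 genes, and with 1.5 it took 2. The ratio of the mean with both compounds to the oxamate mean ran from 1.3 to 1.63 with a median of 1.36, and to the vehicle mean from 1.31 to 1.6 with a median of 1.4. Over all genes with a mean of at least 100 the medians were 1.03 and 1.04. Only 2 members, Bin2 and Ubxn2b, reached 1.5 in both ratios and 14 reached 1.4 in both. The oxamate mean was below the vehicle mean in 26 members and above it in 41, with ratios from 0.906 for Xpo1 to 1.1 and a median of 1.01. Vehicle and oxamate libraries overlapped in all but 2 members. The window of the rule favours such overlap and the same count over all genes was not made, so nothing is read from it. The lowest library with both compounds stood a median of 1.17 times above the highest of the 6 others, from barely above it in BC001981 and Rnf212b (both 1.00 after rounding) to 1.42 in Bin2. Every library with both compounds was above the 6 others in 17.7% of genes with a mean of at least 100, and below them in 11.7%. Just inside the limit, the smaller ratio was 1.3 for Ccdc18, 1.301 for Trim33 and 1.301 for Usp28, and just outside it was 1.298 for 6820431F20Rik, 1.297 for Psmd7 and 1.294 for Spaca5.

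As a median over members, the value of a library relative to the mean of the 6 libraries without octyl-L-2HG was 0.941, 1.03 and 0.999 in vehicle libraries 1 to 3, 0.973, 1.02 and 1.03 in oxamate libraries 4 to 6, and 1.4, 1.38 and 1.34 in libraries 7 to 9. That the 6 libraries lay close together, with the 3 of both compounds above them, follows from the rule. Over all genes with a mean of at least 100 these medians stayed between 0.984 and 1.04. Library 7 was the highest of its group in 35 members and library 9 the lowest in 32. Vehicle library 1 was the lowest of the 6 libraries without octyl-L-2HG in 28 members (41.8%, against 16.2% of all genes with a mean of at least 100), and vehicle library 1 and oxamate library 4 were both the lowest of their groups in 30 (44.8% against 28.0%). What set these libraries lower was not tested. Member counts made up 0.383 to 0.442% of the reads in the 6 libraries without octyl-L-2HG and 0.530 to 0.544% in the 3 with it.

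**Figure D2:**
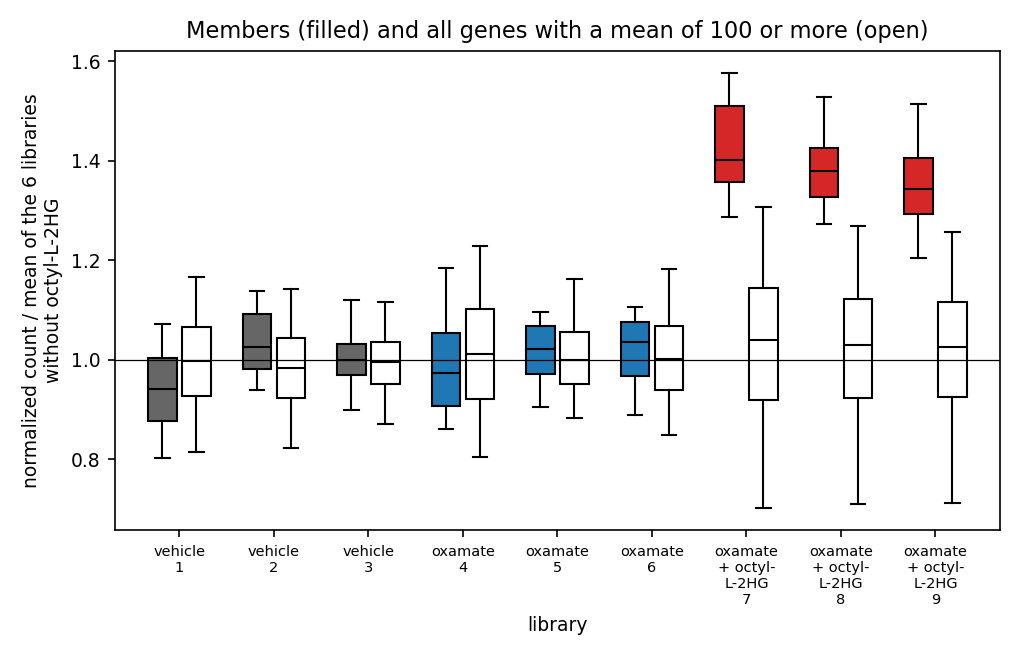
Normalized count of each gene divided by its mean over the 6 libraries without octyl-L-2HG (y axis), by library (x axis), for the members (filled boxes) and all genes with a mean of at least 100 (open boxes); boxes give the quartiles and the median, and whiskers the 5th and 95th percentiles. The filled boxes sit near 1 in libraries 1 to 6, with medians from 0.941 to 1.03, and at medians of 1.34 to 1.4 in libraries 7 to 9.

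In the edgeR quasi-likelihood fit of all genes tested (Benjamini-Hochberg adjustment), 62 members were called higher with both compounds than with oxamate, beside 3.18% of all genes tested (798 of 25128), and 66 were called higher than with vehicle, beside 7.48% (1879). Between oxamate and vehicle no member was called at an adjusted p-value under 0.05, 0 were at an unadjusted p under 0.05, and none was by DESeq2, beside 5.19% of all genes tested (1303). Among the genes with a mean of at least 100, as all members had, the called shares were 7.06%, 16.0% and 9.67% in the same order of comparisons. These counts follow from the rule. The 5 members not called against oxamate were BC001981, 2810032G03Rik, Kif5b, Slain1 and Rnf212b, and the 1 not called against vehicle was 4930426L09Rik. Over the members the median log2 fold change was 0.421 against oxamate, 0.460 against vehicle and 0.0249 for oxamate against vehicle, and over all genes tested the medians were -0.0384, -0.0452 and -0.0113. Of all genes tested 8.06% (2025) were called lower with both compounds than with oxamate, whereas on the deposited scaling, among genes with a mean of at least 100, the 3 libraries with both compounds lay above the 6 others in 1895 genes and below them in 1253. Scaled by edgeR's TMM factors the rule took 41 genes, all of them members, and scaled by library totals 25, of which 23 were members. Without oxamate library 4 the rule took 102 genes, of which 42 were members, and of the 67 members 62 were then called against oxamate, 67 against vehicle and 2 between oxamate and vehicle. Without library 7, 38 members were called against oxamate, and without library 8 or 9 they were 43 and 49. The share of all genes called in these fits was not counted, so the changes are not read as a trait of the members.

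The rule was also run with 1 library of both compounds set aside, so that the values of that library took no part in choosing these genes. The 6 libraries it is set against did take part, as libraries with low values, so the shares below are a description, and the shares of all genes carry no such selection. Without library 7 the rule took 54 genes, and in 53 of them (98.1%) library 7 lay above the 6 libraries without octyl-L-2HG, as it did in 30.7% of all genes with a mean of at least 100. Its median ratio to the mean of those 6 libraries was 1.37, with a range of 1.1 to 1.62. Without library 8 the numbers were 70 of 74 genes (94.6%, beside 26.6%) and a median of 1.34, with a range of 1.02 to 1.56. Without library 9 they were 93 of 101 (92.1%, beside 25.2%) and a median of 1.28, with a range of 0.776 to 1.83, so that 3 of the 101 genes had library 9 below that mean. With TMM scaling the shares were 88.6, 88.9 and 91.7% for libraries 7, 8 and 9, with library totals 80, 96.3 and 93.3%, and with a limit of 1.5, which took only 2 or 3 genes, 100, 100 and 66.7%.

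The largest ratios belonged to genes of low or middling count. Below, normalized counts of single libraries and group means follow the order vehicle, oxamate, both compounds unless the groups are named, and ± gives the SD over 3 libraries for a mean and the SE for a log2 fold change. Bin2, a membrane-bending BAR-domain protein best known from blood cells, had normalized counts of 157, 171 and 143 with vehicle, 157, 167 and 138 with oxamate and 252, 242 and 259 with both compounds. Its libraries with both compounds were tightly grouped and the other 6 overlapped fully. The log2 fold change was 0.67 ± 0.11 (SE) against oxamate and 0.66 ± 0.11 against vehicle. Ubxn2b, a cofactor of the segregase p97 in membrane assembly, had 88.8, 86.2 and 85.2 with vehicle, 83.8, 92.4 and 91.0 with oxamate and 145, 143 and 126 with both, with log2 fold changes of 0.60 ± 0.12 and 0.64 ± 0.12. Here library 9 was the lowest of the 3 and still 1.37 times the highest other library. Zfp180, a KRAB zinc finger protein, had 211, 184 and 200, then 202, 186 and 180, then 255, 279 and 354. Its 3 libraries with both compounds were spread more widely than the rest, with a mean of 296 ± 51.6 (SD, n = 3) against 198 ± 13.8 with vehicle.

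**Figure D3:**
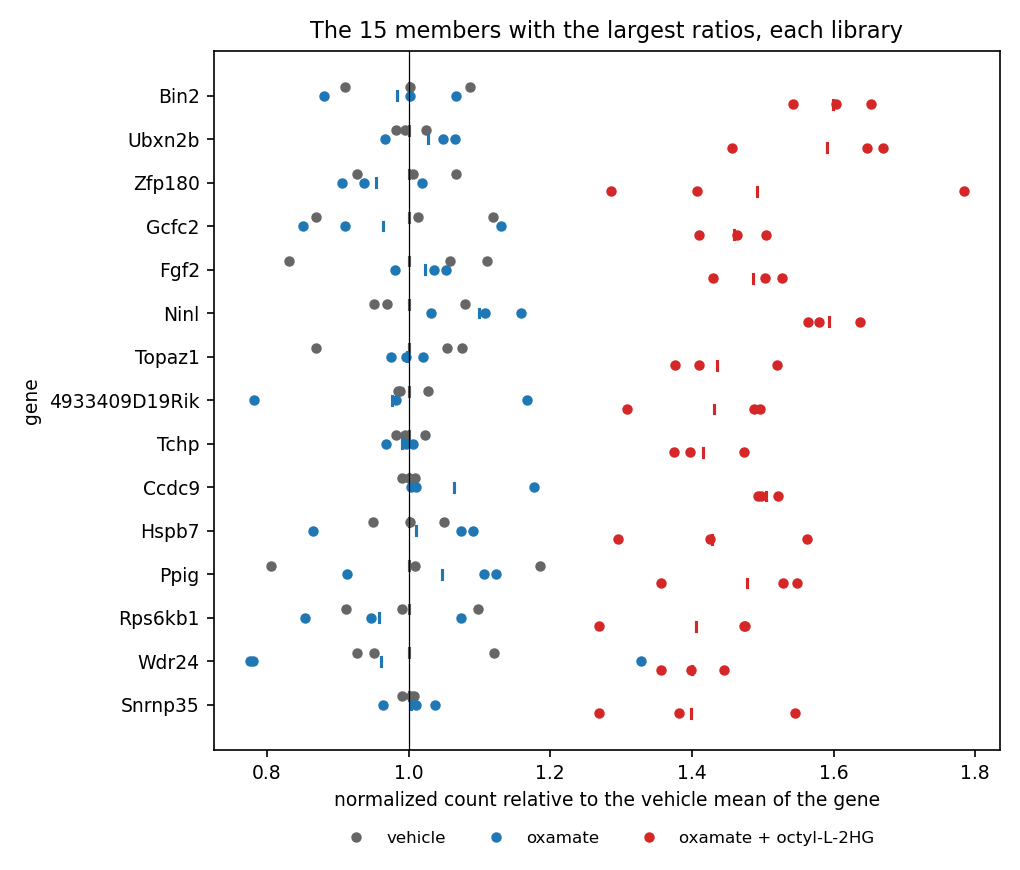
Normalized count of each library divided by the vehicle mean of the gene (x axis) for the 15 members with the largest smaller ratio, with 1 point per library and a tick at the mean of each group. The red points of both compounds lie to the right of all grey and blue points in every row, closest in Wdr24, where oxamate library 4 nearly reached them.

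Among the genes of transcription, which are grouped here by role after the members were known, 8 members were found, with ratios of 1.3 to 1.56 against oxamate and 1.32 to 1.49 against vehicle. The zinc finger genes with the symbol Zfp made up 5 of them, 7.46% of the members and 1.81% of all genes with a mean of at least 100. Zfp was 1 of several symbol families counted. In the same order the shares were 11.9% and 7.82% for Gm, 5.97% and 8.39% for Rik, and 2.99% and 0.943% for Ccdc. Rpl and Rps genes had 1.49% and 0.765%, and Slc, Tmem, Fam, histone and olfactory receptor genes had 0 members. Zfp39 was the most abundant of the 8, with 8953, 11563 and 11089 with vehicle, 10742, 11988 and 11914 with oxamate and 15411, 15732 and 15062 with both compounds. Vehicle library 1 was its lowest and the libraries with both compounds differed by little. The antisense gene Gm12256, whose exons share 444 bases with it, also had a higher mean with both compounds (64.5) than with oxamate (43.5) or vehicle (38.3), and reads of the pair could have been assigned to either, as the strand setting of the counting was not given in the sources used here.

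Zfp281, a regulator of pluripotency genes, averaged 290 ± 34.3 with both compounds, 213 ± 13.1 with oxamate and 202 ± 17.6 with vehicle (SD, n = 3). Zfp998 had 227, 326 and 223, then 219, 269 and 265, then 346, 348 and 330, so that vehicle library 2 came within 1.01 times of the lowest library with both compounds. Zfp800 averaged 635 ± 74.4 in vehicle, 617 ± 103 in oxamate and 835 ± 15.8 in libraries with both compounds. The spread of Zfp998 and Zfp800 was thus wide without octyl-L-2HG and narrow with it. Over all genes with a mean of at least 100 the spread was also lowest with both compounds. Their median SD, as a percent of the mean, was 6.57% with vehicle, 7.98% with oxamate and 4.39% with both. The others were Gtf2h1, a subunit of the general factor TFIIH, at 3304 ± 264, 3593 ± 423 and 4834 ± 228, Cdk8, the kinase of the Mediator complex, at 726 ± 19.2, 772 ± 86.0 and 1016 ± 23.6, and Trim33, a chromatin-binding ubiquitin ligase. Trim33 had 4306, 4999 and 4877 with vehicle, 4459, 4921 and 5262 with oxamate and 6589, 6158 and 6303 with both compounds.

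Genes of RNA processing were 8, with ratios of 1.3 to 1.51 against oxamate and 1.31 to 1.51 against vehicle. Gcfc2, a factor tied to splicing, had 81.7, 105 and 95.2 with vehicle, 80, 85.7 and 106 with oxamate and 142, 133 and 138 with both compounds. Its exons share 1962 bases with Mrpl19 on the other strand, whose means were 149, 123 and 132. The ratio of Mrpl19 between both compounds and oxamate was 1.08, well below the 1.51 of Gcfc2. Ppig, a nuclear prolyl isomerase of the spliceosome, had 394, 580 and 494, then 447, 550 and 542, then 758, 748 and 664. Snrnp35, a protein of the minor spliceosome, had 715, 706 and 718, then 720, 687 and 740, then 1102, 986 and 905. In Snrnp35 the 6 libraries without octyl-L-2HG were nearly level and library 7 was the highest.

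Grsf1, which binds G-rich RNA and works in mitochondrial RNA granules, was among the most even, at 1695 ± 15.6 with both compounds, 1221 ± 51.4 with oxamate and 1214 ± 16.6 with vehicle (SD, n = 3). Rbm6, an RNA-binding regulator of splicing, stood at 1439 ± 82.0, 1380 ± 102 and 1970 ± 29.0. Ncl, the nucleolar protein nucleolin, stood at 223 ± 43.8, 214 ± 11.9 and 295 ± 26.4. Marf1, an RNA-destabilizing factor of oocyte meiosis, stood at 520 ± 26.5, 572 ± 23.1 and 783 ± 51.5. Utp14b, a testis retrogene of ribosomal RNA processing that sits inside the Acsl3 gene, stood at 1546 ± 107, 1553 ± 115 and 2024 ± 149, while Acsl3, which shares 244 exon bases with it on the same strand, stayed at 120, 123 and 119. In Marf1 the oxamate libraries (551, 568 and 596) all lay above the vehicle libraries (495, 517 and 548), and its oxamate mean was at the upper edge of the window.

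Genes that act on chromosomes, in meiosis or at the nuclear pore numbered 8, with ratios of 1.3 to 1.46 against oxamate and 1.31 to 1.44 against vehicle. Topaz1, which male germ cells need in meiosis, had 373, 462 and 452 with vehicle, 418, 438 and 428 with oxamate and 652, 605 and 591 with both compounds, for log2 fold changes of 0.50 ± 0.09 (SE) in both comparisons. Wapl, which releases cohesin from chromosomes, had 8363, 9495 and 9336, then 8583, 9211 and 9802, then 12718, 12074 and 12048. Smc6, part of the SMC5/6 complex of DNA repair, had 5422, 6968 and 6530, then 5642, 6941 and 6904, then 8792, 8572 and 8116. In Wapl and Smc6 vehicle library 1 and oxamate library 4 were the lowest of their groups.

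Mki67, the chromosome-coating protein Ki-67 that marks cycling cells, stood at 597 ± 108 (SD, n = 3), 580 ± 64.6 and 804 ± 17.2. Xpo1, the main nuclear export receptor, had the lowest ratio of oxamate to vehicle (0.906), with 1251 ± 81.2, 1133 ± 91.8 and 1654 ± 75.2. Tpr, of the nuclear pore basket, stood at 1519 ± 199, 1501 ± 125 and 1988 ± 148. Rnf212b, a meiotic RING-finger protein of crossover formation, had 218, 193 and 216, then 260, 216 and 187, then 261, 301 and 301. Its oxamate library 4 and its library 7 were nearly equal, and the gene was not called against oxamate (log2 0.35 ± 0.12, SE). Usp28, a deubiquitinase of the DNA damage response, stood at 510 ± 15.5, 539 ± 5.83 and 701 ± 24.2.

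Of the 6 members at centrosomes or microtubules, Ninl had the largest ratio to vehicle. Ninl, a ninein-like protein of centrosomes, had 442, 434 and 493 with vehicle, 529, 471 and 505 with oxamate and 721, 714 and 747 with both compounds. Its oxamate mean was near the upper edge of the window and its log2 fold change was 0.51 ± 0.08 (SE) against oxamate and 0.65 ± 0.08 against vehicle. Tchp, the keratin-binding centriole protein trichoplein, had 692, 721 and 701, then 682, 702 and 709, then 1039, 968 and 985. Tchp combined almost equal values in the first 6 libraries with a gap of 1.34 times to the lowest library with both compounds. Kif5b, a kinesin heavy chain, stood at 105 ± 16.8 (SD, n = 3), 110 ± 7.56 and 149 ± 17.3, and Slain1, which promotes microtubule growth, at 140 ± 23.2, 150 ± 8.86 and 201 ± 25.4. Neither was called against oxamate. Fhip2b stood at 1172 ± 18.4, 1271 ± 154 and 1709 ± 51.1, and Ccdc18 at 618 ± 101, 624 ± 51.1 and 811 ± 41.5.

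Signalling genes numbered 6, and their ratios to vehicle ran from 1.39 to 1.49. Fgf2, the basic fibroblast growth factor, had 97.7, 131 and 125 with vehicle, 122, 115 and 124 with oxamate and 180, 168 and 177 with both compounds. Library 1 was low and the other 5 without octyl-L-2HG lay close together, and the log2 fold change was 0.51 ± 0.12 (SE) against oxamate and 0.55 ± 0.12 against vehicle. Nudt6, on the other strand and sharing 640 exon bases with it, had means of 35.4, 32.2 and 29.7, in the opposite order. Rps6kb1, the ribosomal protein S6 kinase downstream of mTORC1, had 90.6, 100 and 83.3, then 78.1, 98.2 and 86.6, then 135, 135 and 116. Wdr24, a subunit of the GATOR2 complex that acts on mTORC1, had 559, 462 and 474, then 662, 387 and 389, then 676, 697 and 721. Oxamate library 4 of Wdr24 stood far above the other oxamate libraries and close under those with both compounds. Yes1, a Src-family kinase, was nearly level without octyl-L-2HG, at 105 ± 3.11 (SD, n = 3) with vehicle and 106 ± 1.61 with oxamate, and 147 ± 9.81 with both. Pik3r3, a regulatory subunit of phosphoinositide 3-kinase, stood at 1206 ± 43.6, 1229 ± 13.8 and 1707 ± 118, and Stk10, a kinase of the Ste20 family, at 2857 ± 32.0, 2984 ± 262 and 3980 ± 84.9.

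Membrane and endoplasmic reticulum genes were 9 and held the member with the highest normalized count, although per kilobase of exon Gm7444 stood above it. Clgn, calmegin, a testis chaperone of the endoplasmic reticulum needed for sperm proteins that act in fertilization, had 31879, 34383 and 36627 with vehicle, 30747, 35215 and 36949 with oxamate and 47694, 44865 and 43071 with both compounds. Vehicle library 1 and oxamate library 4 were the lowest of their groups, and the log2 fold change was 0.37 ± 0.07 (SE) against oxamate and 0.38 ± 0.07 against vehicle. Suco, a SUN-domain protein of the endoplasmic reticulum, had 10019, 11344 and 11416, then 9757, 11889 and 11941, then 14641, 14671 and 14799. Its 3 libraries with both compounds were nearly equal, whereas libraries 1 and 4 lay below the rest. Rabep1, an effector of the endosomal GTPase Rab5, stood at 536 ± 61.7 (SD, n = 3), 568 ± 19.3 and 758 ± 79.5, and Clic4 at 730 ± 7.84, 749 ± 39.9 and 976 ± 8.38. Rmc1 stood at 197 ± 10.6, 190 ± 28.0 and 260 ± 11.8, Mfsd6 at 287 ± 47.9, 294 ± 29.4 and 384 ± 21.5, and Shisa7 at 161 ± 29.1, 158 ± 7.50 and 212 ± 18.4. These 3 had ratios of 1.3 to 1.37 against oxamate and 1.31 to 1.34 against vehicle.

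**Figure D4:**
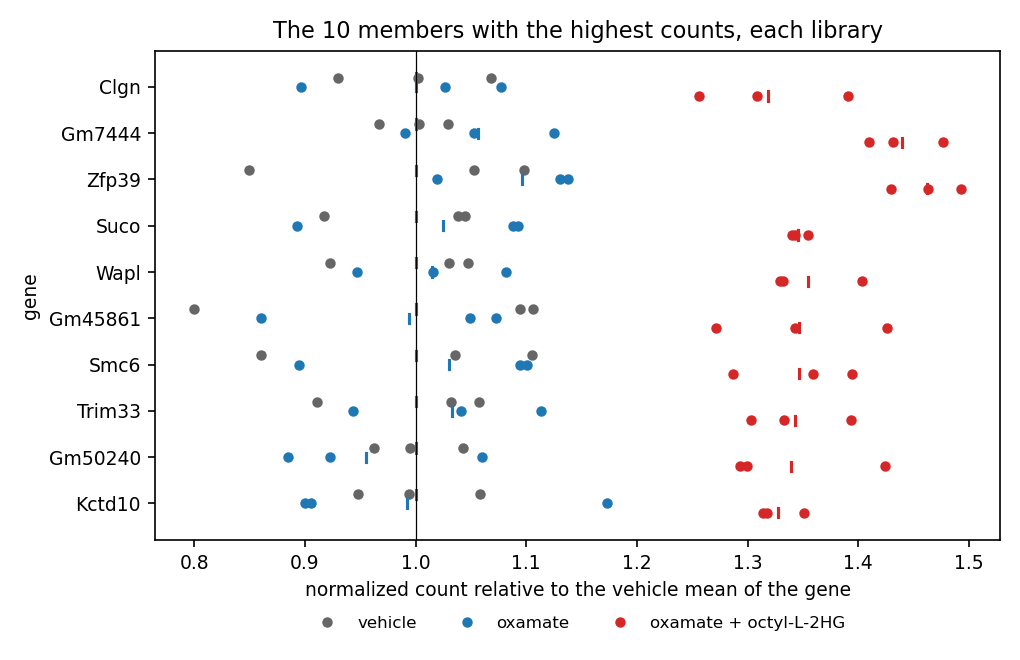
Normalized count of each library divided by the vehicle mean of the gene (x axis) for the 10 members with the highest mean count, with 1 point per library and a tick at the mean of each group. The red points lie beyond all others in each row, and the lowest grey point, vehicle library 1 in most rows, sits near 0.8 in Gm45861.

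The 4 metabolic members had the narrowest ratios to oxamate, 1.31 to 1.34, and 1.35 to 1.46 to vehicle. Plpbp, which binds pyridoxal phosphate, stood at 324 ± 14.1 (SD, n = 3), 342 ± 23.7 and 459 ± 31.6. Gatc, of the mitochondrial glutamyl-tRNA amidotransferase, stood at 221 ± 14.5, 243 ± 23.7 and 323 ± 3.19. Cyb5r3, a cytochrome b5 reductase, stood at 390 ± 24.3, 408 ± 32.5 and 537 ± 60.4, and Pafah2, an acetylhydrolase of oxidized phospholipids, at 498 ± 23.9, 511 ± 97.2 and 671 ± 48.0. Oxamate library 4 of Pafah2, at 623, was nearly as high as library 7, at 628.

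Among other coding members, Hspb7, a small heat shock protein of muscle, had 844, 800 and 885, then 905, 919 and 729, then 1092, 1316 and 1202. Ccdc9 had 180, 184 and 182, then 214, 183 and 184, then 273, 272 and 277, so that the libraries with both compounds hardly differed. Kctd10, an adaptor of the CUL3 ubiquitin ligase, had 4009, 3589 and 3765, then 4441, 3430 and 3407, then 4977, 5116 and 4991. Oxamate library 4 was its highest without octyl-L-2HG, and Myo1h, which shares 1530 exon bases with it on the other strand, had lower means with both compounds (74.6) than with oxamate (137) or vehicle (107). Gm45861, whose exons share 1484 bases with Poteg on the same strand, had 7218, 9881 and 9984, then 7769, 9468 and 9683, then 12873, 12122 and 11478, and a repeated copy could share its reads. Ebag9 stood at 228 ± 25.7, 249 ± 18.2 and 342 ± 21.6, Zcchc14 at 172 ± 9.94, 172 ± 22.8 and 236 ± 13.1, and 4930426L09Rik at 105 ± 14.5, 98.1 ± 10.0 and 137 ± 15.1.

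Noncoding genes and pseudogenes were 11, with ratios of 1.31 to 1.47 against oxamate and 1.31 to 1.44 against vehicle. The most abundant, Gm7444, had 20895, 22243 and 21681 with vehicle, 21405, 22737 and 24305 with oxamate and 31897, 30936 and 30464 with both compounds. Its libraries with both compounds stood well above the 6 others, which overlapped, but it is a processed pseudogene, as are Gm6969 and Gm6244, and reads of such copies could come from their parent genes. The antisense gene Gm50240 had 4655, 4295 and 4442, then 4732, 3947 and 4118, then 6359, 5802 and 5773. The lincRNA 4933409D19Rik had 107, 102 and 103, then 102, 121 and 81.1, then 136, 154 and 155. The antisense gene BC001981 was at 132 ± 16.7 (SD, n = 3), 135 ± 25.8 and 186 ± 30.7, with ratios of 1.38 against oxamate and 1.41 against vehicle. Serf1, which shares 218 exon bases with it on the other strand, had ratios of 1.29 and 1.17. The pseudogene Gm6969 had 176, 164 and 162, then 166, 161 and 175, then 275, 224 and 196, and Gm6244 had 639, 672 and 733, then 677, 746 and 791, then 1120, 915 and 864. In both pseudogenes library 7 was the highest of the 3 by a clear margin. The lincRNA Gm48079 stood at 171 ± 11.7, 166 ± 5.76 and 239 ± 16.0, and the lincRNA Gm45027 at 374 ± 43.5, 343 ± 30.6 and 504 ± 43.4. The lincRNA Gm32916 stood at 403 ± 51.1, 401 ± 35.3 and 526 ± 77.9, and 2810032G03Rik, also a lincRNA, at 100 ± 12.5, 102 ± 18.8 and 139 ± 11.5. The processed transcript 4930404I05Rik stood at 289 ± 12.3, 296 ± 17.1 and 410 ± 20.2. In Gm32916 and 2810032G03Rik the lowest library with both compounds was only 1.02 and 1.07 times the highest of the others.

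In level per kilobase of exon, which allows genes to be compared, the members ran from 11.8 for Rps6kb1 and 13.7 for Gcfc2 to 9425 for Clgn and 10368 for Gm7444. Their median was 108, beside 122 in the genes raised at both steps, 158 in the lowered genes and 255 in all genes with a mean of at least 100. Their transcripts were longer: the longest transcript per gene had a median of 4119 bases in the members, 3002 in all genes with a mean of at least 100, 2178 in the genes lowered by the same rule turned downward, and 4374 in the genes raised at both steps. The share of G and C in it had a median of 45.0% in the members, 48.6% in all such genes, 48.7% in the lowered genes and 52.5% in the genes raised at both steps. The members thus shared their length with the genes raised at both steps but had the lowest median G and C share of these 4 groups. No test was run on these medians.

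**Figure D5:**
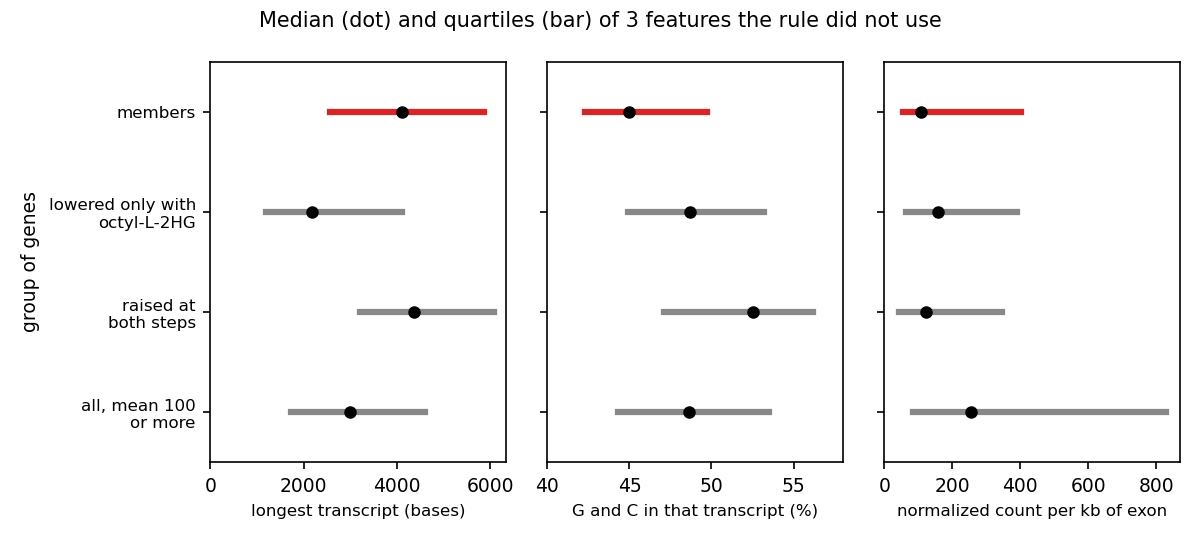
Median (dot) and quartiles (bar) of the longest transcript in bases, its G and C share in percent and the normalized count per kilobase of exon (x axes) for the members, the lowered genes, the genes raised at both steps and all genes with a mean of at least 100 (rows). The members have a median G and C share of 45.0%, the lowest of the rows, and a median length of 4119 bases, near the 4374 of the genes raised at both steps.

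Transcript length also moved with the ratios of all genes with a mean of at least 100. From the quartile of shortest to that of longest transcripts, the log2 of the median ratio of both compounds to vehicle went from -0.0765 to 0.148. That to oxamate went from -0.0220 to 0.0685. The median ratio of oxamate alone to vehicle also rose with length, so the order against vehicle was partly present without octyl-L-2HG. This ratio was 0.953 in the shortest quartile, 0.998 and 1.02 in the next ones, and highest in the longest. The members in the quartiles, from shortest to longest, were 10, 13, 16 and 28. From the quartile with the least to that with the most G and C, the log2 of the median ratio to oxamate was 0.0692, 0.0376, 0.0331 and 0.0180, whereas that to vehicle had no such order, at 0.0730, 0.0473, 0.0451 and 0.0542, and the members were 26, 21, 8 and 12. The part of length and base composition in the values of the members was not tested.

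Of the 67 members 56 were protein coding (83.6%, beside 85.9% of all genes with a mean of at least 100), 5 were lincRNAs, 3 processed pseudogenes (4.48% beside 0.860%), 2 antisense genes and 1 a processed transcript. None lay on the X chromosome, which held 2.56% of all such genes. The exons of 23 members (34.3%) overlapped exons of a gene on the other strand and those of 7 (10.4%) a gene on the same strand, beside 32.2% and 6.89% of all genes with a mean of at least 100.

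No member was on any of 11 gene lists that hold candidate programmes of stress, metabolism and spermatid maturation (277 genes, 258 of them tested). Only 161 of the 10715 genes with a mean of at least 100 (1.5%) were on these lists, and a count of 0 among 67 members is near that share. Of the 26 genes of late spermatid chromatin and sperm proteins, 16 were called lower and 0 higher with both compounds than with oxamate, their median log2 fold change was -0.290, and 22 were lower and 0 higher than with vehicle. The counts of these lists stand beside a fit in which 8.06% of all genes tested were called lower and 3.18% higher against oxamate, and 10.6% lower and 7.48% higher against vehicle, so more lower than higher calls was also the pattern of all genes tested in both comparisons. Among genes with a mean of at least 100, as all 26 late spermatid genes had, 7.06% were called higher against oxamate and 16.0% against vehicle. The share of such genes called lower was not counted. Among transcription regulators of spermatids 1 of 24 was higher and 7 lower against oxamate, with 5 higher and 3 lower against vehicle. Of 17 immediate early genes 6 were lower against oxamate and 3 against vehicle, with 0 higher in both. In the integrated stress response 0 of 22 were higher and 3 lower against oxamate, and 3 higher and 2 lower against vehicle. For targets of HIF, of 21 tested, these counts were 0 and 2, then 3 and 2, and for NRF2 targets and antioxidant genes, of 25, they were 0 and 3, then 2 and 4. For p53 targets and apoptosis, of 22, they were 0 and 1, then 5 and 2, and for heat shock and unfolded protein, of 26, they were 2 and 4, then 7 and 3. Ester hydrolysis and the metabolism of 2-hydroxyglutarate, of 23, gave 1 and 2, then 5 and 1, cholesterol synthesis, of 27, gave 1 and 3, then 2 and 2, and fatty acid oxidation and PPAR targets, of 28, gave 1 and 1, then 0 and 1.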

How the data were processed

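Polyadenylated RNA of 9 libraries of round spermatids, 3 per group, was sequenced with a stranded kit. The labels and the methods name different instruments. The authors trimmed reads with cutadapt 2.10, aligned them with TopHat2 2.1.1 to mouse GRCm39 with Ensembl annotation and deposited counts per gene from HTSeq 2.01, and a normalized signal, the count divided by the DESeq2 1.36.0 size factor of the library (0.867 to 1.13). Of 55414 genes listed, 6250 had no counts, and 0 columns of per-sample values went unused. The strand setting of the counting was not given in the sources used here.

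Groups came from the labels. The rule was applied to the normalized signal. The 25128 genes with at least 10 counts in all were fitted with edgeR 4.0.16 in R 4.3.3 (TMM, 9 libraries in 1 robust quasi-likelihood fit, group as the only term, Benjamini-Hochberg threshold 0.05), which was tested on simulated data. DESeq2 1.42.0, other scalings, filters and limits and each library left out were alternatives. The members and lists were chosen with earlier results of these data known. The rule for named genes took the 15 members with the largest smaller ratio, the 10 with the highest mean, those nearest the limit and symbol families of 3 or more, with predicted genes as a group. Members outside it were named after their values were seen, to account for all 67, and many are given by group means. Library pairs differed by more than sampling noise (chi-square per degree of freedom 2.10 to 23.3). Gene models came from GENCODE M21 on GRCm38, matched by identifier for 67 of 67 members, and start-site regions from RefSeq, build GRCm38.p6, with no coordinates of the models printed. Libraries held 32339533 to 39888396 counts, and both counting and the spread between libraries limit the precision of the members.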

Additional observations from a re-analysis of the deposited data

How the results depend on the processing

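The number of genes the rule takes depended on the scaling and the limits: in place of 67 it was 41 with TMM scaling, 25 with total counts, 67 with DESeq2 size factors computed here, 336 with a fold limit of 1.2, 2 with 1.5, 98 with the oxamate mean allowed from 0.8 of vehicle to the inverse of that, 47 with it within 5% of vehicle, 79 and 51 with a minimum mean of 50 and 200, and 72 without the order of libraries. Leaving out 1 library gave 54 to 102, with 102 without oxamate library 4 (42 of them members) and 101 without library 9 (63 of them members). Of the members, 38 to 65 were called against oxamate with 1 library left out, the lowest without library 7, 52 to 67 against vehicle, and 0 to 2 between oxamate and vehicle, with 2 without oxamate library 4. The other settings gave 42 to 67, 50 to 67 and 0, with 42 and 50 at an adjusted p-value under 0.01. The share of all genes called was not counted for the fits with a library left out or for these settings. Total counts moved the median log2 ratio of all genes with a mean of at least 100 from 0.0360 to -0.0341 against oxamate and from 0.0529 to -0.0320 against vehicle. Of 780 log2 fold changes of 30 named members under alternatives, 726 kept their call, 54 lost it and 0 changed sign. The cause of these changes was not tested. No paired analysis was possible because the groups share no replicate number and nothing in the labels says which libraries belong together; whether they do was not tested. With 1 library left out, Wdr24 and Zfp998, where a library without octyl-L-2HG came close to those with it, were called in 4 of 9 fits in each comparison, the fewest among the 30 named members.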
